A study of Homo sapiens with 12 samples.

Results

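Messenger RNAs of 8 secreted factors that cells release under stress were followed in HLE cells: *GDF15*, *ADM*, *ADM2*, *ANGPTL4*, *STC1*, *STC2*, *VEGFA* and *VEGFC*. They were chosen by name, and all 8 were found by Entrez identifier among the 26258 genes of the deposited table. HLE is an established human cell line from hepatocellular carcinoma. By transfection the cells received control siRNA (siCtrl), siRNAs that target YAP and TAZ together (siY/T) or one that targets ATF4 (siATF4), and each of these was kept in DMSO, the solvent control, or in Sorafenib (Srf, 5 µM per the labels), a kinase inhibitor given against liver cancer. This gives 6 groups of 2 libraries each, 12 libraries in all, and all 6 groups share the same line, culture medium and a transfection. The whole experiment rests on a single cell line, and the siRNAs lower their targets without removing them. The methods of the study call its RNA samples biological replicates without saying whether the 2 libraries of a group came from separate cultures. The p-values therefore measure the spread between these libraries, pooled for each gene over all 6 groups.

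The 8 factors are known as outputs of stress programmes. In the integrated stress response, phosphorylation of the translation factor eIF2α lets ATF4 protein accumulate, and ATF4 then switches on genes of amino acid supply together with secreted signals such as GDF15, ADM2 and STC2. Low oxygen acts through the HIF transcription factors, which are known to raise *VEGFA*, *ADM*, *ANGPTL4* and the stanniocalcins. YAP and TAZ are transcriptional co-activators that work with TEAD factors, and they are known to drive growth and matrix genes.

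Libraries held 41408348 to 53619732 reads on genes, so that 1 read stood for 0.0186 to 0.0241 CPM (reads per 1000000 reads on genes). Within a group, the log2 ratio of the pair of libraries had an SD over 13515 genes that lay between 0.110 and 0.132 in 5 groups and was 0.190 in siY/T DMSO cells. Since the tests pool the spread over all groups, they may understate it where siY/T DMSO cells are compared. Each siRNA lowered its target mRNA: the log2 fold changes against siCtrl in DMSO and in Sorafenib were -2.41 and -2.47 for *YAP1*, -1.50 and -1.52 for *WWTR1* (which encodes TAZ) and -1.33 and -2.47 for *ATF4*. *WWTR1* also fell with siATF4 in DMSO, by 0.70 on the log2 scale, and *ATF4* fell with siY/T in Sorafenib, by 0.63 (488 to 315 CPM, limma adjusted p = 1.84e-07), where its response to the drug was lower by 0.33 (limma adjusted p = 0.00348). Of 7 hepatocyte markers, 6 stayed at or below 0.117 CPM in every library and *SERPINA1* lay between 0.0214 and 2.32 CPM, whereas the epithelial keratins *KRT8* and *KRT18* and mesenchymal *VIM* were abundant and *CDH1* lay between 0.0396 and 7.93 CPM. The epithelial markers did not all move together. *CDH1* was raised by Sorafenib in siCtrl cells (2.37) and lowered by siATF4 in Sorafenib (-3.14). In siCtrl cells the drug left *KRT8* (0.16) and *KRT18* (-0.52) uncalled. *KRT8* and *KRT18* were lowered by siY/T (-1.74 and -1.65 in DMSO, -1.34 and -1.16 in Sorafenib), whereas *CDH1* rose with siY/T in DMSO (1.02). Depletion of ATF4 lowered *KRT8* (-0.94 and -0.61), and *KRT18* was not called (-0.01 and 0.54). Mesenchymal *FN1* fell with siATF4 (-1.36 in DMSO, -0.89 in Sorafenib) and rose with Sorafenib in siATF4 cells (1.03). The other mesenchymal markers, *VIM* and *CDH2*, were not called in these comparisons. With siATF4, *VIM* gave -0.09 in DMSO and -0.57 in Sorafenib, and *CDH2* gave -0.27 and 0.08. For Sorafenib in siATF4 cells the values were -0.15 for *VIM* and 0.32 for *CDH2*. All 3 endothelial markers stayed at or below 0.150 CPM. Of 3 leukocyte markers, *PTPRC* and *CD14* stayed at or below 0.644 CPM, and *CD68*, a lysosomal protein that is not limited to leukocytes, lay between 19.8 and 75.0 CPM and rose with siATF4, by 1.82 in DMSO and 1.40 in Sorafenib. The part of these marker shifts in the results was not tested.

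The start regions of *ADM2*, *STC2*, *GDF15* and *ADM* are printed here because the response of the first 3 to Sorafenib was lower with both siRNAs, whereas *ADM* was lower with siY/T whatever the drug. RefSeq promoter windows (250 bases before to 50 after the gene's start, table build GRCh38.p14) were matched for 6 of the 8 factors, and each was found once, unchanged, in GRCh37, whose coordinates are given. The windows were read 5′ to 3′ on the gene's strand and searched on both strands for TGATGNAA, the core of the C/EBP-ATF response element, for ACGTG and GCGTG, the cores of the hypoxia response element, and for GGAATG, the TEAD core. Capitals mark the matches.
ADM2 (chr22:50919722-50920021, plus strand): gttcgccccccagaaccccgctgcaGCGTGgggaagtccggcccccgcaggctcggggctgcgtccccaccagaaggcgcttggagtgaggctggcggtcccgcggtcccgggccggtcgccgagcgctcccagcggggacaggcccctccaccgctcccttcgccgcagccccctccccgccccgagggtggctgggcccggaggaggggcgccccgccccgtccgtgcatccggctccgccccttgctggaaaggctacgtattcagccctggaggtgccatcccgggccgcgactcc
STC2 (chr5:172755368-172755667, minus strand): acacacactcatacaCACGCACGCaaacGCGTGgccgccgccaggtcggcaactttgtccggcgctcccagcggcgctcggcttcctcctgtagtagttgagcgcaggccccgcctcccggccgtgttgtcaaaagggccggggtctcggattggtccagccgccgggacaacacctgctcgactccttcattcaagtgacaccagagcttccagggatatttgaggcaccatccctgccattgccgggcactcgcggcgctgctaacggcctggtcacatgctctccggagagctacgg
GDF15 (chr19:18496718-18497017, plus strand): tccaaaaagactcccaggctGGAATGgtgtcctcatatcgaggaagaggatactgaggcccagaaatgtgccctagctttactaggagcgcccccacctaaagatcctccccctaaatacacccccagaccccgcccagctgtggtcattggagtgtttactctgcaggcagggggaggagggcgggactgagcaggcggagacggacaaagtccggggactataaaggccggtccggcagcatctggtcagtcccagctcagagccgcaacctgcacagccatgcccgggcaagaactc
ADM (chr11:10326370-10326669, plus strand): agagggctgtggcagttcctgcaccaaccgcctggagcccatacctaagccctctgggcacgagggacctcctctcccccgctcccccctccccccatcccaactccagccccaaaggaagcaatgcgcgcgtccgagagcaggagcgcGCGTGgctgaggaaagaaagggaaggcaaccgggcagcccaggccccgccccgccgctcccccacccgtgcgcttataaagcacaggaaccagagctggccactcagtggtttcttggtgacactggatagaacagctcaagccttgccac

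*ADM2* held GCGTG 225 bases before the start and *ADM* held it 101 bases before. *STC2* held it 222 bases before the start, with its reverse complement CACGC at 235 and 231 bases before, these last overlapping by a base. In *GDF15* the only match was GGAATG, 230 bases before the start. Of the other windows, *ANGPTL4* held CACGT, which is ACGTG on the other strand, 234 bases before the start, and *VEGFC* held CACGC 59 bases before. The letters TGATGNAA were not in any of the 6 windows. Across 35116 promoter windows, TGATGNAA was present in 3.62%, ACGTG in 21.4%, GCGTG in 36.5%, either hypoxia form in 48.4% and GGAATG in 14.0%. A match is a description and not a site of binding.

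The 8 factors differed in how their mRNA levels moved. Sorafenib raised *ADM2*, *GDF15* and *STC2* in siCtrl cells and lowered *ANGPTL4* and *STC1*. Depletion of ATF4 lowered *ADM2*, *VEGFA*, *GDF15* and *STC2* in Sorafenib and raised *STC1* and *ANGPTL4*. Depletion of YAP and TAZ lowered *ADM* and *ANGPTL4* with and without the drug. *VEGFC* was not called in any comparison. Calls follow the rule of the study, a log2 fold change of 0.58 or more in either direction with a two-sided P under 0.05 before adjustment. They come from a limma fit of log2(CPM + 0.5) over the 13515 genes that reached 1 CPM in 2 or more libraries, a filter that all 8 factors passed. Because each library pools the RNA of many cells, fewer expressing cells and less RNA per cell cannot be told apart in these values. CPM is a share of the reads, so a change in other abundant genes also shifts a value.

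**Figure D1:**
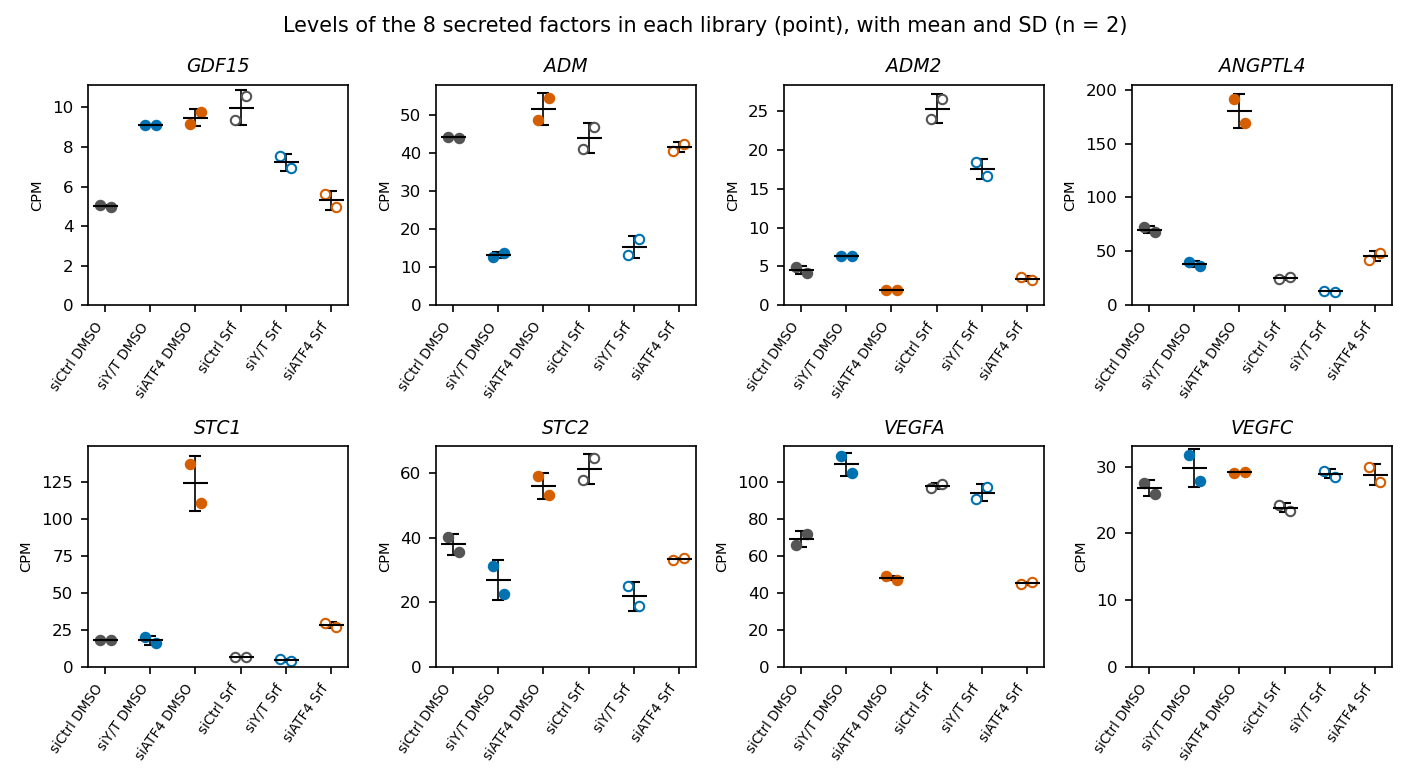
Level in CPM (vertical axis, from 0) of each of the 8 factors in each of the 12 libraries, by group; points are libraries (filled, DMSO; open, Sorafenib), horizontal bars are means and whiskers are SD (n = 2). *ADM2* stands highest in siCtrl Srf cells (25.3 CPM), *STC1* and *ANGPTL4* in siATF4 DMSO cells (124 and 180 CPM), and *ADM* is lowest in both siY/T groups.

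*GDF15* (Entrez 9518, chromosome 19 of GRCh37 from 18485541 to 18499986, plus strand) encodes a TGF-β family hormone that acts on the brainstem receptor GFRAL and curbs appetite. In DMSO its libraries read 5.05 and 4.97 CPM in siCtrl, 9.09 and 9.10 CPM in siY/T and 9.17 and 9.78 CPM in siATF4 cells. With Sorafenib they read 9.35 and 10.6 CPM in siCtrl, 7.53 and 6.92 CPM in siY/T and 5.63 and 4.97 CPM in siATF4 cells. The drug and each siRNA given alone thus read between 9.09 and 10.6 CPM, the control and siATF4 with the drug between 4.97 and 5.63 CPM, and siY/T with the drug lay between these. Sorafenib raised *GDF15* by 0.92 on the log2 scale in siCtrl cells (standard error 0.088, 1.99-fold, limma adjusted p = 1.30e-06) and lowered it by 0.78 in siATF4 cells (limma adjusted p = 1.22e-05). In siY/T cells the difference was -0.31 (95% interval -0.50 to -0.12), short of the fold threshold, with both Sorafenib libraries below both DMSO libraries. Without the drug siY/T raised *GDF15* by 0.80 and siATF4 raised it by 0.86, both measured against the same siCtrl libraries. With the drug siATF4 lowered it by 0.85, and the difference with siY/T was -0.44. The response to Sorafenib was lower than in siCtrl cells by 1.24 in siY/T cells (standard error 0.124, limma adjusted p = 7.68e-05) and by 1.71 in siATF4 cells (limma adjusted p = 1.26e-06). At 224 to 519 reads per library *GDF15* was among the thinly covered factors, and the miRNA gene *MIR3189*, which lies within it, had at most 0.0204 CPM.

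*ADM* and *ADM2* encode adrenomedullin and intermedin, vasodilator peptides of the calcitonin family that signal through CALCRL with a RAMP protein. *ADM* (Entrez 133, chromosome 11 from 10326620 to 10328944, plus strand) read 44.1 and 44.0 CPM in siCtrl cells given DMSO and 41.1 and 46.7 CPM in those given Sorafenib. With siY/T its libraries read 12.6 and 13.7 CPM in DMSO and 13.3 and 17.3 CPM in Sorafenib. With siATF4 they read 48.5 and 54.5 CPM in DMSO and 40.5 and 42.4 CPM in Sorafenib. The 4 siY/T libraries were thus the lowest of the 12, and no other group came near them. The fall with siY/T was 1.71 on the log2 scale in DMSO (standard error 0.102, to 0.299 of the control level, limma adjusted p = 2.69e-08) and 1.50 in Sorafenib (limma adjusted p = 1.34e-07), and these effects differed by 0.21 (95% interval -0.10 to 0.52). Sorafenib itself shifted *ADM* by -0.01 in siCtrl cells (95% interval -0.23 to 0.21), where the libraries of the groups overlapped, by 0.20 in siY/T cells (95% interval -0.02 to 0.42) and by -0.31 in siATF4 cells (95% interval -0.53 to -0.09). The siATF4 values against siCtrl were 0.22 in DMSO and -0.08 in Sorafenib, neither past the thresholds.

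*ADM2* (Entrez 79924, chromosome 22 from 50919972 to 50924869, plus strand) read 4.89 and 4.22 CPM in siCtrl cells without the drug and 24.0 and 26.6 CPM with it. With siY/T it read 6.30 and 6.30 CPM in DMSO and 18.4 and 16.6 CPM in Sorafenib. With siATF4 it read 2.01 and 1.92 CPM in DMSO and 3.66 and 3.23 CPM in Sorafenib. No 2 groups overlapped, and the siATF4 libraries with the drug stayed below the siCtrl libraries without it. Sorafenib raised *ADM2* by 2.36 on the log2 scale in siCtrl cells (standard error 0.095, 5.56-fold, limma adjusted p = 2.62e-09), by 1.40 in siY/T cells (2.77-fold) and by 0.68 in siATF4 cells (1.75-fold). The last of these no longer passed the fold threshold after quantile normalisation, with 0.56. Depletion of ATF4 lowered *ADM2* by 1.03 in DMSO and by 2.71 in Sorafenib, to 0.136 of the siCtrl Srf level (limma adjusted p = 6.52e-11). With siY/T the differences were 0.43 in DMSO and -0.52 in Sorafenib, the second of which passed the fold threshold without siCtrl Srf replicate 1 (-0.59) or siY/T Srf replicate 1 (-0.59). The response to the drug was lower by 0.96 in siY/T (standard error 0.134, limma adjusted p = 0.000564) and by 1.68 in siATF4 cells (limma adjusted p = 2.18e-06) than in siCtrl cells. *SBF1* overlaps *ADM2* on the opposite strand and the counting was not stated to use strand. *SBF1* lay between 169 and 208 CPM in the 12 libraries, with 185 and 178 CPM in siCtrl cells in DMSO and 179 and 191 CPM in Sorafenib, and its part in the *ADM2* values was not tested.

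*ANGPTL4* (Entrez 51129, chromosome 19 from 8428173 to 8439254, plus strand) encodes an inhibitor of lipoprotein lipase that is known to be induced by fasting, PPAR ligands and low oxygen. It read 72.7 and 67.8 CPM in siCtrl DMSO, 40.6 and 36.1 CPM in siY/T DMSO and 191 and 169 CPM in siATF4 DMSO cells. With Sorafenib it read 24.2 and 26.2 CPM in siCtrl, 13.5 and 12.4 CPM in siY/T and 42.2 and 48.8 CPM in siATF4 cells. The order siY/T, siCtrl, siATF4 was the same in both arms, and within each siRNA both Sorafenib libraries were below both DMSO libraries. Sorafenib lowered *ANGPTL4* by 1.46 in siCtrl (standard error 0.085, limma adjusted p = 2.27e-08), by 1.53 in siY/T and by 1.98 in siATF4 cells, that is, to 0.358, 0.339 and 0.252 of the DMSO level. Depletion of YAP and TAZ lowered it by 0.87 in DMSO and 0.93 in Sorafenib, and these effects differed by -0.06 (95% interval -0.32 to 0.20). Depletion of ATF4 raised it by 1.35 in DMSO (2.57-fold, limma adjusted p = 1.73e-08) and by 0.84 in Sorafenib (1.81-fold), and the difference of -0.51 between these effects passed the test (standard error 0.120, limma adjusted p = 0.00441).

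The stanniocalcins STC1 and STC2 are secreted glycoproteins, and STC2 is known to bind and inhibit the protease PAPPA, which releases IGF from its binding proteins. *STC1* (Entrez 6781, chromosome 8 from 23699442 to 23712319, minus strand) read 17.9 and 17.9 CPM in siCtrl DMSO, 19.9 and 15.9 CPM in siY/T DMSO and 137 and 111 CPM in siATF4 DMSO cells. With Sorafenib it read 6.67 and 6.65 CPM in siCtrl, 5.13 and 3.76 CPM in siY/T and 29.6 and 27.1 CPM in siATF4 cells. The siATF4 libraries were the highest in each arm, and the Sorafenib libraries were below the DMSO libraries of the same siRNA. Depletion of ATF4 raised *STC1* by 2.75 in DMSO (standard error 0.131, 6.92-fold, limma adjusted p = 1.22e-09) and by 2.01 in Sorafenib (4.26-fold, limma adjusted p = 1.64e-08), the largest rises of any of the 8 factors against siCtrl. Sorafenib lowered it by 1.36 in siCtrl, 1.90 in siY/T and 2.10 in siATF4 cells. With siY/T the difference was -0.01 in DMSO, with libraries on both sides of siCtrl, and -0.55 in Sorafenib, just short of the fold threshold. Without siY/T Srf replicate 1 the latter was -0.75 and passed. The response to the drug was lower by 0.74 in siATF4 cells (limma adjusted p = 0.00681), and the value for siY/T, -0.54, did not pass (limma adjusted p = 0.0548) but did when siY/T DMSO replicate 2 (-0.70) or siY/T Srf replicate 1 (-0.74) was left out.

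*STC2* (Entrez 8614, chromosome 5 from 172741726 to 172755450, minus strand) moved differently from *STC1*. It read 40.3 and 35.7 CPM in siCtrl DMSO, 31.2 and 22.5 CPM in siY/T DMSO and 59.0 and 53.3 CPM in siATF4 DMSO cells. With Sorafenib it read 58.0 and 64.6 CPM in siCtrl, 25.1 and 18.7 CPM in siY/T and 33.2 and 33.7 CPM in siATF4 cells. The siY/T libraries were the lowest in each arm, and siCtrl Srf overlapped siATF4 DMSO at the top. Sorafenib raised *STC2* by 0.68 in siCtrl cells (standard error 0.142, 1.61-fold, limma adjusted p = 0.000951) and lowered it by 0.73 in siATF4 cells (limma adjusted p = 0.000861), and in siY/T cells the difference was -0.29 (95% interval -0.59 to 0.02). In Sorafenib, siY/T lowered it by 1.48 (to 0.357 of siCtrl, limma adjusted p = 2.69e-06) and siATF4 by 0.86. In DMSO the values were -0.51 with siY/T and 0.56 with siATF4, neither past the fold threshold. The first passed without siCtrl DMSO replicate 2 (-0.59) or siY/T DMSO replicate 1 (-0.74), and the second without siCtrl DMSO replicate 1 (0.64) or siATF4 DMSO replicate 2 (0.63). The response to the drug was lower than in siCtrl cells by 0.97 in siY/T (limma adjusted p = 0.00527) and by 1.42 in siATF4 cells (limma adjusted p = 0.000137).

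VEGFA and VEGFC are ligands of the VEGF receptors, the former known for blood vessel growth through KDR and the latter for lymphatic growth through FLT4. *VEGFA* (Entrez 7422, chromosome 6 from 43737921 to 43754224, plus strand) read 66.1 and 72.1 CPM in siCtrl DMSO, 114 and 105 CPM in siY/T DMSO and 48.9 and 47.2 CPM in siATF4 DMSO cells. With Sorafenib it read 96.8 and 99.0 CPM in siCtrl, 90.8 and 97.3 CPM in siY/T and 44.6 and 45.7 CPM in siATF4 cells. The 4 siATF4 libraries were the lowest of the 12. Depletion of ATF4 lowered *VEGFA* by 1.11 in Sorafenib (standard error 0.058, to 0.461 of siCtrl, limma adjusted p = 1.92e-09), and in DMSO the difference was -0.52, short of the fold threshold except without siCtrl DMSO replicate 1 (-0.58). Depletion of YAP and TAZ raised it by 0.66 in DMSO (1.58-fold, limma adjusted p = 6.97e-07), and in Sorafenib the difference was -0.06 (95% interval -0.18 to 0.07) with libraries that overlapped. Sorafenib gave 0.50 in siCtrl cells, 1.42-fold and under the fold threshold although the limma adjusted p was 7.03e-06, with -0.22 in siY/T and -0.09 in siATF4 cells. The response to the drug was lower by 0.72 in siY/T (limma adjusted p = 0.000165) and by 0.59 in siATF4 cells (limma adjusted p = 0.000115).

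*VEGFC* (Entrez 7424, chromosome 4 from 177604689 to 177714076, minus strand) read 27.6 and 25.9 CPM in siCtrl DMSO, 31.8 and 27.8 CPM in siY/T DMSO and 29.1 and 29.2 CPM in siATF4 DMSO cells. With Sorafenib it read 24.3 and 23.4 CPM in siCtrl, 29.4 and 28.5 CPM in siY/T and 29.9 and 27.7 CPM in siATF4 cells. All 12 values thus lay within a narrow band, and the group means spanned 0.31 on the log2 scale, against 0.92 for *GDF15* and 1.27 to 4.66 for the other 6 factors. The largest differences were 0.27 with siY/T and 0.27 with siATF4 in Sorafenib, whose 95% intervals, 0.13 to 0.42 and 0.12 to 0.42, lay below the fold threshold. For this factor a change of the size called elsewhere was outside the interval in every comparison.

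Sorafenib against DMSO asks which of these signals the drug brings out. In siCtrl cells it raised 3 and lowered 2 of the 8 factors, where 17.5% of all genes tested were called (12.3% raised and 5.15% lowered). In siY/T cells it raised only *ADM2* and lowered *ANGPTL4* and *STC1*, 3 of 8 against 9.97% of all genes (5.83% raised and 4.14% lowered). In siATF4 cells it raised *ADM2* and lowered *GDF15*, *ANGPTL4*, *STC1* and *STC2*, 5 of 8 against 8.63% of all genes (5.68% raised and 2.95% lowered). The 3 comparisons use separate libraries, and *ADM2* was raised and *ANGPTL4* and *STC1* were lowered in all 3. The median log2 fold change of the 8 factors was 0.25, -0.25 and -0.52 in siCtrl, siY/T and siATF4 cells, and the medians over all genes tested were 0.05, 0.04 and 0.03.

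**Figure D2:**
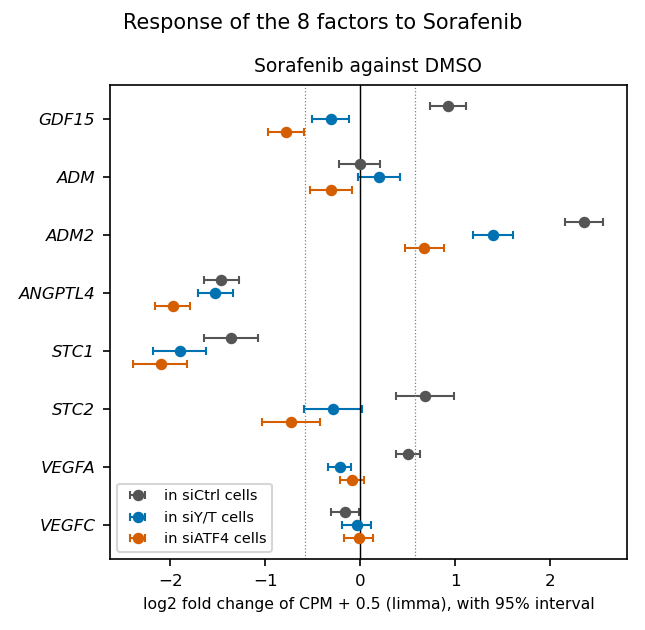
Log2 fold change of CPM + 0.5 (horizontal axis) for Sorafenib against DMSO in siCtrl (grey), siY/T (blue) and siATF4 cells (orange), with 95% limma intervals; the dotted lines mark the fold threshold of 0.58 in either direction. *GDF15* and *STC2* lie to the right of 0 in siCtrl cells and to the left in siATF4 cells, *ADM2* steps from 2.36 to 0.68, and *ANGPTL4* and *STC1* lie to the left in all 3.

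Each siRNA was compared with siCtrl to ask how far the levels rest on its target. In DMSO, siY/T raised *GDF15* and *VEGFA* and lowered *ADM* and *ANGPTL4*, 4 of 8 where 14.6% of all genes were called (11.0% raised and 3.61% lowered). In Sorafenib it lowered *ADM*, *STC2* and *ANGPTL4*, 3 of 8 against 9.95% of all genes (6.11% raised and 3.84% lowered), and quantile normalisation, edgeR and DESeq2 each called 5, adding *ADM2* and *STC1*. Depletion of ATF4 in DMSO raised *STC1*, *ANGPTL4* and *GDF15* and lowered *ADM2*, 4 of 8 against 22.7% of all genes (8.57% raised and 14.1% lowered). In Sorafenib it lowered *ADM2*, *VEGFA*, *STC2* and *GDF15* and raised *STC1* and *ANGPTL4*, 6 of 8 against 28.9% of all genes (10.3% raised and 18.7% lowered). Both siRNAs were set against the same siCtrl libraries in each arm. A direct comparison of the depleted groups needs no siCtrl library: siATF4 cells had more *ADM* (by 1.93 and 1.42 on the log2 scale in DMSO and Sorafenib), *ANGPTL4* (2.22 and 1.77), *STC1* (2.76 and 2.56) and *STC2* (1.07 and 0.62) than siY/T cells, and less *ADM2* (-1.46 and -2.19) and *VEGFA* (-1.18 and -1.05). These are 6 of 8 factors in each arm, where 35.7% of all genes were called in DMSO (13.0% raised and 22.7% lowered) and 38.5% in Sorafenib (14.8% raised and 23.7% lowered). The *STC2* call in Sorafenib was lost without siY/T Srf replicate 2 (0.41).

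**Figure D3:**
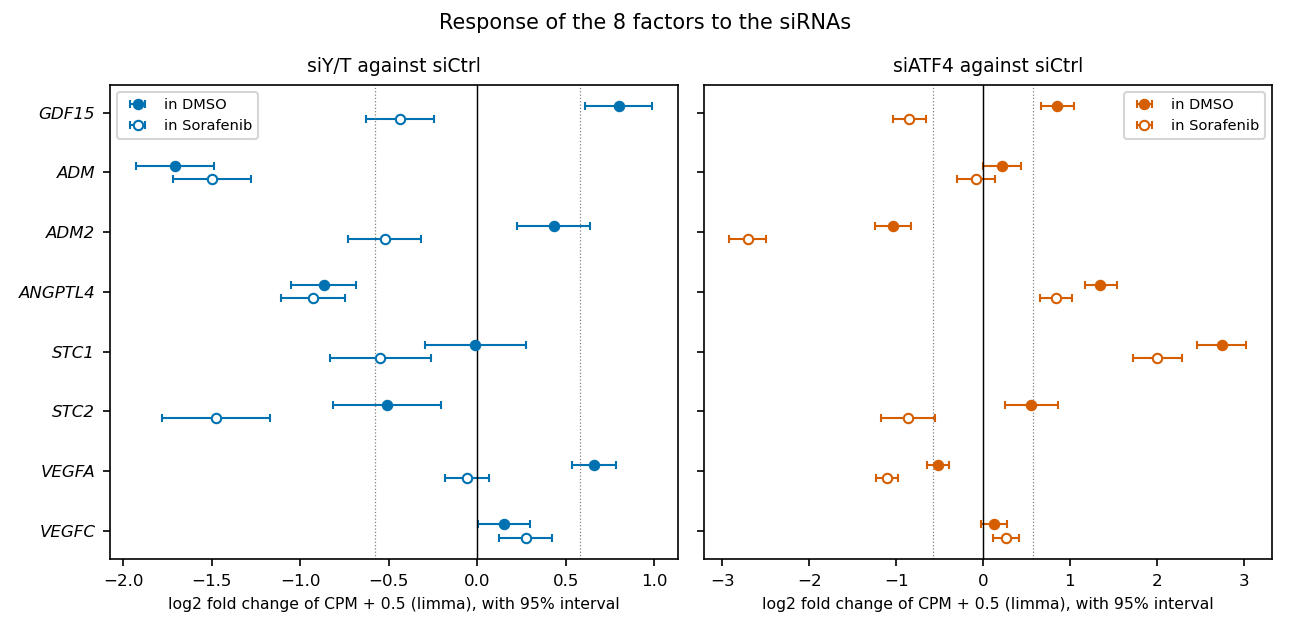
Log2 fold change of CPM + 0.5 (horizontal axis) for siY/T (left) and siATF4 (right) against siCtrl in DMSO (filled) and in Sorafenib (open), with 95% limma intervals; the dotted lines mark 0.58 in either direction, and the axes of the panels differ. *ADM* and *ANGPTL4* stay left of 0 with siY/T in both arms, *STC1* and *ANGPTL4* stay right of 0 with siATF4, and *GDF15* changes side between the arms with both siRNAs.

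Whether a siRNA altered the response to the drug was tested as the effect of the siRNA in Sorafenib minus its effect in DMSO, called at a Benjamini-Hochberg adjusted P under 0.05. With siY/T the response was lower than in siCtrl cells for 4 of 8 factors (*GDF15*, *STC2*, *ADM2* and *VEGFA*) and higher for 0, where 22.0% of all genes were called (14.2% lower and 7.81% higher). That background moved with single libraries, as the 2978 genes called became 1581 without siCtrl DMSO replicate 2, 1623 without siCtrl Srf replicate 2, 1949 without siY/T Srf replicate 1 and 4575 without siY/T DMSO replicate 2. With siATF4 it was lower for 6 of 8 (*GDF15*, *ADM2*, *STC2*, *STC1*, *VEGFA* and *ANGPTL4*) and higher for 0, where 41.1% of all genes were called, 21.8% lower and 19.3% higher. For *ANGPTL4* and *STC1*, which Sorafenib lowered, a lower response was a deeper fall, whereas for *ADM2* it was a smaller rise. The factors without a call were *ADM* and *VEGFC* with both siRNAs, and *ANGPTL4* and *STC1* with siY/T. Both tests share the siCtrl libraries of both arms. *ADM* with siATF4, at -0.30, passed when either siY/T Srf library was left out, since the siY/T libraries enter that test only through the shared spread.

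Genes commonly induced through ATF4, other than the 8 factors, gave the setting of these changes. Of 36 such genes 32 were tested, and in siCtrl cells Sorafenib raised 16 and lowered 1 (12.3% and 5.15% of all genes), with a median of 0.62. *CHAC1*, which degrades glutathione, rose by 2.28, the mTORC1 inhibitor *DDIT4* by 1.93, the transcription factor *DDIT3* (CHOP) by 1.60 and the pseudokinase *TRIB3* by 1.49. In siY/T cells the drug raised 11 and lowered 0 (5.83% and 4.14% of all genes, median 0.44), and in siATF4 cells it raised 0 and lowered 3 (5.68% and 2.95% of all genes, median -0.01), namely *CEBPB*, *SLC7A5* and *SESN2*. In Sorafenib, siATF4 lowered 16 and raised 1 of the 32 (18.7% and 10.3% of all genes), with *DDIT4* at -3.29 and *CHAC1* at -2.76, and siY/T lowered 15 and raised 1 (3.84% and 6.11% of all genes), with the amino acid transporters *SLC7A5* at -1.71 and *SLC7A11* at -1.67. In DMSO, siATF4 lowered 13 of them and raised 8 (14.1% and 8.57% of all genes). *PHGDH*, the first enzyme of serine synthesis, fell by 2.12, and *PPP1R15A* rose by 2.35, *CEBPB* by 2.24 and *DDIT3* by 2.04. FGF21 and INHBE, secreted factors also counted among ATF4 targets, could not be followed: *FGF21* had 0 reads in every library, which allows up to 3 reads or 0.0724 CPM in the shallowest, and *INHBE* had at most 0.262 CPM.

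Of 33 genes of the hypoxia response 30 were tested, and Sorafenib raised 3 and lowered 0 in siCtrl cells, with a median of 0.02, where 12.3% and 5.15% of all genes were called. The 3 were *MXI1* (1.27), the enolase *ENO2* (0.81) and *VLDLR* (0.72), the last of which also stands on the integrated stress response list. Depletion of ATF4 in Sorafenib raised 3 and lowered 7, shares near the 10.3% and 18.7% of all genes. *VLDLR* fell by 1.92 and *PFKFB4* by 1.13, and the glycolytic enzyme *HK2* rose by 2.35 and the collagen crosslinking enzyme *LOX* by 1.19. Depletion of YAP and TAZ lowered 5 and raised 0 in DMSO (3.61% and 11.0% of all genes), among them *LOX* (-1.33) and *HK2* (-0.95), and 4 and 0 in Sorafenib (3.84% and 6.11% of all genes).

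**Figure D4:**
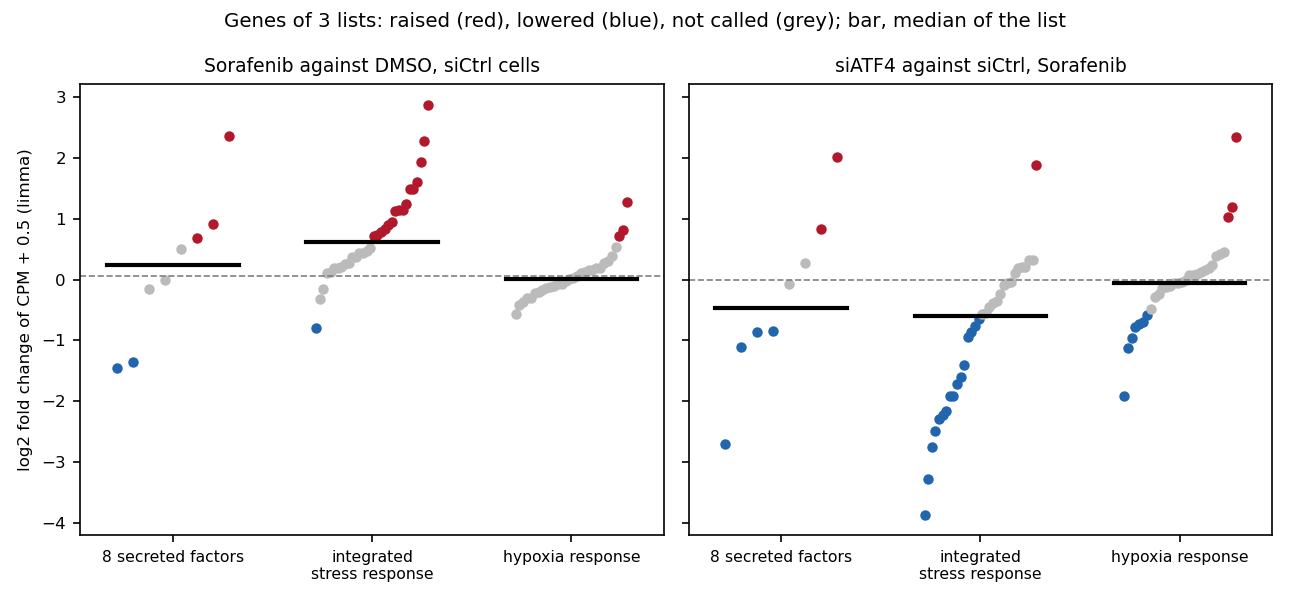
Log2 fold change of CPM + 0.5 (vertical axis) of each gene tested in the 8 factors, the 32 integrated stress response genes and the 30 hypoxia response genes, ordered by value within a list; red, raised; blue, lowered; grey, not called; the bar is the list's median and the dashed line the median of all genes tested. Left, Sorafenib raises 16 integrated stress response genes and 3 hypoxia genes in siCtrl cells; right, siATF4 in Sorafenib lowers 16 and 7.

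Of 19 transcription factors and oxygen sensors known to act upstream of these factors, 18 were tested, and Sorafenib raised 7 and lowered 1 in siCtrl cells (12.3% and 5.15% of all genes). *ATF4* itself went from 248 to 488 CPM (0.97), *DDIT3* from 25.7 to 79.1 CPM and *CEBPB* from 26.4 to 58.6 CPM (1.14). *EGR1*, an immediate early gene of the MAP kinase pathway, fell with the drug, with log2 fold changes of -3.07 in siCtrl, -4.99 in siY/T and -3.32 in siATF4 cells. Its means went from 5.59 to 0.223 CPM in siCtrl, from 34.4 to 0.609 CPM in siY/T and from 9.41 to 0.493 CPM in siATF4 cells. The Sorafenib levels lay near the 0.5 CPM added before the log. The larger fall in siY/T cells thus began from a higher DMSO level and did not end below siCtrl Srf. *HIF1A* was not called against siCtrl or DMSO, with values from -0.30 to 0.14, whereas *EPAS1*, which encodes HIF-2α, fell in Sorafenib by 1.00 with siY/T and by 0.71 with siATF4. In siATF4 DMSO cells *DDIT3* stood at 107 CPM and *CEBPB* at 126 CPM, above their siCtrl Srf levels, with *GDF15* at 9.48 CPM and *ADM2* at 1.97 CPM in the same libraries. *PPARG*, a nuclear receptor known to induce *ANGPTL4*, rose with siATF4 in Sorafenib by 0.76, and in DMSO its difference was 0.16 and not called. Of the other PPAR genes, *PPARA* rose with Sorafenib by 0.82 in siCtrl and by 0.82 in siY/T cells, where *ANGPTL4* fell. With siATF4, *PPARA* and *PPARD* were not called in DMSO or in Sorafenib. The part of these receptors in the *ANGPTL4* values was not tested.

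Receptors and binding partners were mostly at low levels in these cells. Of 16 receptors, co-receptors and bound proteins, 9 stayed under 1 CPM in every library, at or below 0.865 CPM, and 6 passed the filter. *FLT4*, the receptor of VEGFC, read 13.4 and 13.5 CPM in siCtrl cells without the drug and 31.7 and 32.8 CPM with it, a rise of 1.23 (standard error 0.066, limma adjusted p = 1.26e-08). In siY/T Srf cells it read 7.38 and 6.83 CPM, a fall of 2.11 against siCtrl Srf (limma adjusted p = 3.49e-10), and its response to the drug was lower by 1.58 with siY/T (limma adjusted p = 1.74e-06). With siATF4 it fell by 0.76 in Sorafenib (limma adjusted p = 2.65e-07), and its response was lower by 0.49 (limma adjusted p = 0.00115). *FLT4* thus moved while its ligand *VEGFC* was not called. *NRP1*, a co-receptor of VEGF ligands, was at 58.5 CPM in siCtrl and 28.3 CPM in siATF4 cells in DMSO (-1.03), and *PAPPA*, the protease bound by STC2, fell with siY/T in DMSO, 74.2 to 29.2 CPM (-1.33), and in Sorafenib, 86.9 to 32.5 CPM (-1.41). *CALCRL*, the receptor of both adrenomedullin peptides, had group means of 0.259 to 4.40 CPM, lowest with siATF4 and highest with siY/T, where it rose by 0.93 in DMSO. The partners that CALCRL needs were at most at 0.0222 CPM for *RAMP1* and 0.0234 CPM for *RAMP2*, a single read, and *RAMP3* had 0 reads in every library, as had the GDF15 receptor *GFRAL*. The VEGFA receptors *FLT1* and *KDR* stayed at or below 0.0198 and 0.171 CPM.

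Of 7 enzymes and helpers that mature the factors 5 were tested. None of the 5 was called for Sorafenib in siCtrl, siY/T or siATF4 cells (17.5%, 9.97% and 8.63% of all genes). None was called for siY/T in DMSO or in Sorafenib (14.6% and 9.95% of all genes). Depletion of ATF4 raised 1 and lowered 2 in DMSO (8.57% and 14.1% of all genes) and raised 1 and lowered 1 in Sorafenib (10.3% and 18.7%). With only 5 genes, these counts cannot be set apart from the shares of all genes. *PAM*, which amidates adrenomedullin peptides, had group means of 181 to 291 CPM. The proprotein convertase *FURIN* fell with siATF4 by 0.66 in DMSO and 0.79 in Sorafenib, and *CCBE1*, which helps ADAMTS3 cleave VEGFC, rose with siATF4 by 0.74 in DMSO and by 1.33 in Sorafenib, from levels of 1.05 and 0.751 CPM. *ADAMTS3* itself fell with siATF4 by 0.63 in DMSO, and its response to the drug was higher by 0.81 in siATF4 cells (limma adjusted p = 0.000286), and that of the convertase *PCSK7* was lower by 0.27 in siY/T cells (limma adjusted p = 0.0131). Among 14 other ligands of the same families only *VEGFB*, *GDF11* and *PGF* were tested. *VEGFB* rose with Sorafenib by 0.72 in siCtrl cells, from 48.6 to 80.5 CPM, and *GDF11* fell with siATF4 by 1.25 in DMSO and 1.54 in Sorafenib.

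**Figure D5:**
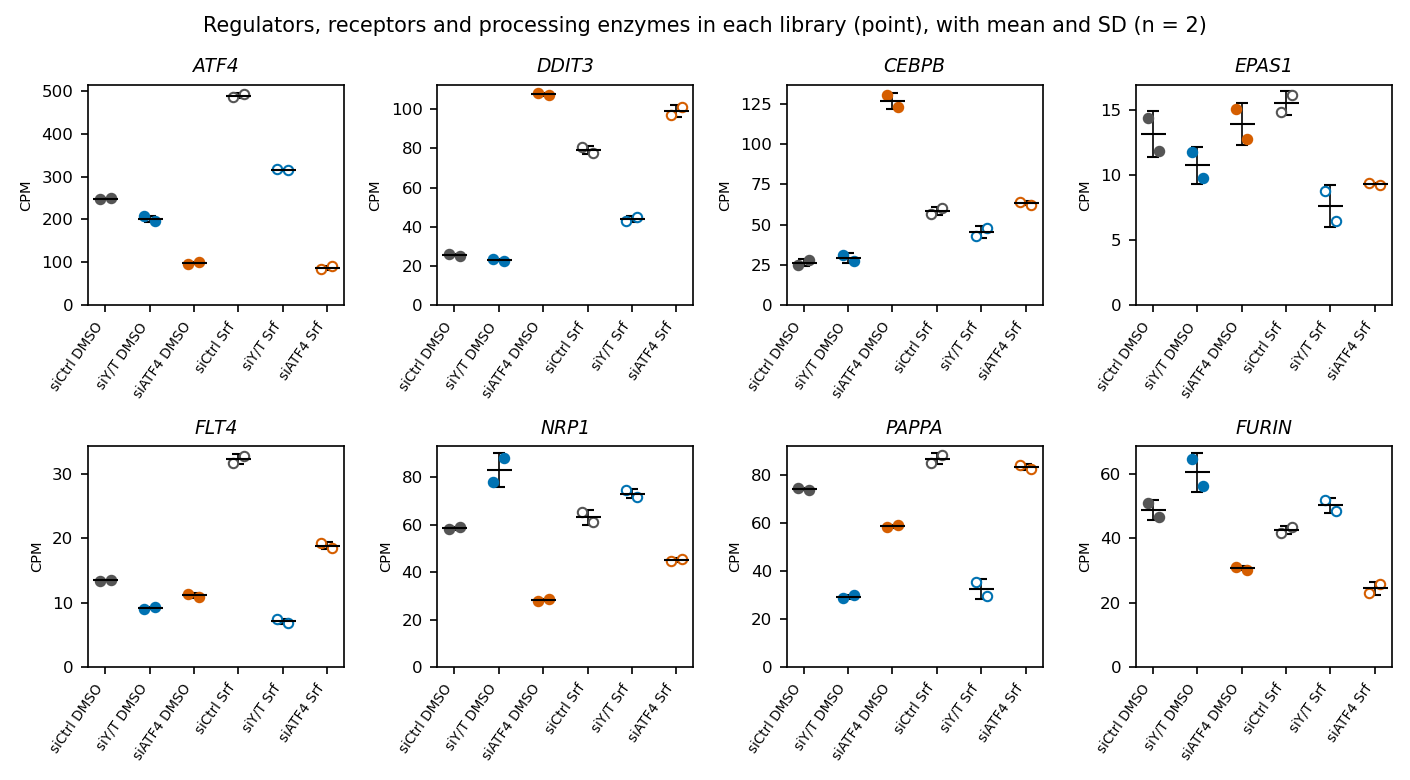
Level in CPM (vertical axis, from 0) of 4 regulators (*ATF4*, *DDIT3*, *CEBPB*, *EPAS1*), 3 receptors or partners (*FLT4*, *NRP1*, *PAPPA*) and the processing enzyme *FURIN* in each library; points are libraries (filled, DMSO; open, Sorafenib), bars are means and whiskers SD (n = 2). *FLT4* is highest in siCtrl Srf cells (32.2 CPM), *PAPPA* lowest in both siY/T groups, and *FURIN* and *NRP1* lowest in the siATF4 groups.

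The genes whose 6 group means ran closest to a factor were found by the root-mean-square difference of centred log2(CPM + 0.5) values over the 6 groups, among 11151 genes with at least 5 CPM on average. For *VEGFA* these were the galectin *LGALS1* (0.07) and *LITAF* (0.09). For *STC1* they were the cell cycle inhibitor *CDKN1A* (0.25), the collagenase *MMP1* (0.44) and the cytokine *IL11* (0.45). *CDKN1A* went from 15.4 CPM in siCtrl DMSO to 102 CPM in siATF4 DMSO cells. For *STC2* they were the phosphatase *DUSP1* (0.19), *EPAS1* (0.26) and the methionyl-tRNA synthetase *MARS1* (0.27), for *ANGPTL4* the cytokine *LIF* (0.45), *NCEH1* (0.49) and *RELT* (0.49), and for *ADM2* *ALDH3B1* (0.33), *ITGB4* (0.35) and *BCAM* (0.37). For *ADM* they were *CLMN* (0.20), *MIR622* (0.21) and *KRT18* (0.21), and *MIR622* lies inside a processed pseudogene of *KRT18*, so its count is uncertain. *GDF15* and *VEGFC* spanned less than 1 on the log2 scale and were not compared. These are likenesses of 6 means and carry no test.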

How the data were processed

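RNA from HLE cells was sequenced after poly(A) enrichment, in 12 libraries of 6 groups, with a kit that the methods of the study name as stranded. The labels and the methods differ on the kit and on the sequencing instrument. Per the labels and the methods of the study, the authors aligned single-end reads with STAR against hg19, retained those with a unique position and used QuasR for counting over RefSeq mRNA exons; the STAR version and the strand setting of the counting are not given in the sources used here. The authors deposited CPM for 26258 Entrez identifiers. Each library adds up to 1000000, and 100% of the values were whole multiples of 1 read within 0.001 read, so reads were recovered from them. Names for 26111 identifiers came from RefSeq (GRCh38.p14), whose coordinates were not used. Positions are those of GENCODE on GRCh37, the build hg19. The labels give 5 µM Sorafenib and 2 libraries per group, which differ from the dose and the number of replicates stated in the text of the study.

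CPM were tested as log2(CPM + 0.5) with limma 3.58.1 in R 4.3.3, with the variance trended on mean expression, 1 coefficient per group and all 12 libraries in 1 fit, for 13515 genes that reached 1 CPM in 2 or more libraries. Fold changes are on that scale, which understates the change of low genes. There were 11 comparisons, and p-values are adjusted by Benjamini-Hochberg over all genes tested within each. The study's own test was edgeR on counts; here edgeR 4.0.16 and DESeq2 1.42.0 on the recovered reads, other pseudocounts, filters, scalings, a block for replicate number, fits restricted to the groups compared and leaving out each library were alternatives. On the recovered reads edgeR called 2697 genes for Sorafenib in siCtrl cells and 4292 for siATF4 in Sorafenib, and limma on CPM called 2361 and 3911. On simulated reads for siATF4 against siCtrl in Sorafenib, with 200 of 13515 genes changed by 1.5, limma recovered 199 with 2 wrong calls. For edgeR these counts were 200 and 29, and for DESeq2 they were 199 and 18. Recovery of differences near 0.58, or with as many genes differing as were called here, was not tested. A limit for a count of 0 covers counting error only. The genes named are the 8 factors, the siRNA targets, up to 4 called genes per list and comparison with the largest change and at least 5 CPM on average, tested receptors, enzymes and regulators, and for each factor spanning at least 1 the 3 genes most like it, of which 1 is not reported here. *FGF21*, *INHBE*, *SBF1*, *MIR3189*, receptors under the filter and the cell type markers are named as checks outside that rule, after their values were seen. The factors and lists were chosen with earlier results of these data known. Tables were read and figures drawn with Python 3.11.15, pandas 2.3.3, numpy 2.4.6 and matplotlib 3.10.9.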

Additional observations from a re-analysis of the deposited data

Results flagged for a closer look

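In 10 cases the response of a factor to Sorafenib differed between siCtrl cells and cells with a siRNA by the limma test of the difference itself, and each is given as the log2 fold change in siRNA cells minus that in siCtrl cells. For *GDF15* the value was -1.24 with siY/T and -1.71 with siATF4, and the drug raised it in siCtrl and lowered it in siATF4 cells. For *ADM2* it was -0.96 and -1.68, with a smaller rise in each. For *STC2* it was -0.97 and -1.42, and for *VEGFA* -0.72 and -0.59. With siATF4 alone the difference also passed for *STC1*, at -0.74, and for *ANGPTL4*, at -0.51, each a deeper fall. Both siRNAs were compared with the same siCtrl libraries, so their values are not independent of each other.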

How the results depend on the processing

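Of 88 results for the 8 factors, 52 were called, and 50 of these kept their call and direction under all 11 other settings and with each of the 12 libraries left out. The exceptions were *ADM2*, Sorafenib in siATF4 cells, at 0.56 after quantile normalisation, and *STC2*, siATF4 against siY/T in Sorafenib, at 0.41 without siY/T Srf replicate 2. Of the 36 results not called, 29 stayed so. The number of factors called for siY/T against siCtrl in Sorafenib went from 3 to 5 after quantile normalisation, with edgeR and with DESeq2, and lay between 3 and 5 with a library left out. Signs turned only for values near 0. *VEGFC*, siATF4 against siY/T, was 0.0365 (TMM), 0.0627 (quantile), 0.0304 (edgeR) and 0.0399 (DESeq2) in DMSO, and 0.0571, 0.0787, 0.0590 and 0.0565 in Sorafenib. With a library left out it lay between -0.125 and 0.0665 in DMSO and between -0.0620 and 0.0485 in Sorafenib, *VEGFC* for Sorafenib between -0.136 and 0.0556 in siY/T and between -0.0728 and 0.0376 in siATF4 cells, the siY/T difference in response of *ANGPTL4* between -0.146 and 0.0219, *STC1* for siY/T in DMSO between -0.169 and 0.148, and *ADM* between -0.100 and 0.0845 for Sorafenib in siCtrl cells and between -0.172 and 0.0132 for siATF4 in Sorafenib.

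The count of all genes whose response differed with siY/T, 2978, went to 4903 with unadjusted p-values and to between 1581 and 4575 with a library left out. Genes lowered were 29.5% of all calls for Sorafenib in siCtrl cells and 24.7% for siY/T in DMSO, and 47.7% and 43.0% after quantile normalisation. Replicate numbers were not taken to pair the libraries: deviations of same-numbered libraries of compared groups correlated over genes between 0.0358 and 0.193 within an arm, at 0.100, 0.118 and 0.164 in Sorafenib, and between -0.0796 and 0.0054 across arms. With the replicate number as a block, the siY/T difference in response of *STC1*, -0.54, and the siATF4 difference of *ADM*, -0.30, passed (limma adjusted p = 0.0194 and 0.0431), and no call of a factor was lost. With 2 libraries per group, differences close to the fold threshold are the least certain.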
